A study of Mus musculus with 6 samples.

Results

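Mouse autosomes are acrocentric, and the GRCm38 assembly of each chromosome starts only after a stretch that stands in for the centromere. The measurements described here are those of the first assembled sequence: the 100-CpG windows of chromosomes 1 to 19 that end at or before base 6000000. They were chosen by position alone, with no methylation value used, and numbered 7557 of the 359192 windows of the table. The next 3 Mb of the same chromosomes, after base 6000000 and up to base 9000000, held 7065 windows and served as neighbours, and 337223 windows lay elsewhere on the autosomes. The study asked whether DNA methylation copied onto new strands at replication is complete by mitosis. For this, cycling mouse embryonic stem cells (mESCs) of the E14TG2a line, of strain 129/Ola, cultured here on gelatin with serum and leukaemia inhibitory factor, were given the thymidine analogue EdU, fixed in ethanol, stained for EdU and DNA content, and sorted into G1 and G2/M populations. Each population gave 3 libraries of enzymatic methyl-seq (EM-seq), which protects methylated and hydroxymethylated cytosines together from enzymatic deamination, so that both modifications are read as methylation. All 6 libraries carry the same line, strain and labelling, and by their labels the groups differ in the sorted phase alone, and no unsorted sample was part of the comparison.

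Mouse centromeres are built on minor satellite DNA, and the pericentromere beside it on long arrays of major satellite. These arrays carry trimethylated histone H3 lysine 9 deposited by the SUV39H enzymes and dense CpG methylation placed by DNMT1 and the DNMT3 enzymes, and they replicate late in S phase. Short reads cannot be placed uniquely inside satellite arrays, so the windows described here report on the unique and interspersed-repeat sequence next to the pericentromere, together with the genes found there.

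Sequences are shown for the ends of the range of methylation at the first windows and gene starts, with every CpG in capitals. All are from GRCm38.p6, given 5′ to 3′. The first 240 bases of the first window of chromosome 12 (chr12:3000068-3000307, plus strand) belong to the most methylated of the 19 first windows, and the first 240 bases of that of chromosome 7 (chr7:3000226-3000465, plus strand) to the least methylated. The 234-base repeat unit of chromosome 9 (chr9:3027538-3027771, plus strand) is shown because it comes from a stretch without a window in which this spacing recurs. Of the 32 listed genes, 18 had an entry among 32851 RefSeq promoters of this build. The 250 bases upstream of the RefSeq start are shown for 3 of them. Suv39h2 (chr2:3474987-3475236, minus strand, 27 CpGs) has a start window listed at 0%. Esr1 (chr10:4611739-4611988, plus strand, 4 CpGs) has the most methylated start window of the list. Rela (chr19:5637291-5637540, plus strand, 23 CpGs) has a start in no window. Start windows were set by the most upstream annotated start instead. The RefSeq start of Esr1 lies 396 bp downstream of that one, so its printed bases lie downstream of it too. As many CpGs as in the Suv39h2 promoter were found in 8.56% of all promoters of that length, as many as in Rela in 13.3% and as many as in Esr1 in 62.2%.
chromosome 12 first window: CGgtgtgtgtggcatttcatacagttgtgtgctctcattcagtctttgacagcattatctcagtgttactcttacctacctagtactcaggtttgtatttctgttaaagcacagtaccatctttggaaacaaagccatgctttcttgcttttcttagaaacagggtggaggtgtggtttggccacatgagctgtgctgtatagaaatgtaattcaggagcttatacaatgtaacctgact
chromosome 7 first window: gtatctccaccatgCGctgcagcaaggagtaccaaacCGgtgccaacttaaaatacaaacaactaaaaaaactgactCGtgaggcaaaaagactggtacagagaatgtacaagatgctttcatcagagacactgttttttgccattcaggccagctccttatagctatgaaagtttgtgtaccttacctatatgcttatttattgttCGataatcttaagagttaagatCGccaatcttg
chromosome 9 repeat unit: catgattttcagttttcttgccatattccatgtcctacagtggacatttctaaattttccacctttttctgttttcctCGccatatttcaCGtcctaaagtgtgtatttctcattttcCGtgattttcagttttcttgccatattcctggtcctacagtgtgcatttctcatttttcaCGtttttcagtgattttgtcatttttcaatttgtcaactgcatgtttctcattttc
Suv39h2 promoter: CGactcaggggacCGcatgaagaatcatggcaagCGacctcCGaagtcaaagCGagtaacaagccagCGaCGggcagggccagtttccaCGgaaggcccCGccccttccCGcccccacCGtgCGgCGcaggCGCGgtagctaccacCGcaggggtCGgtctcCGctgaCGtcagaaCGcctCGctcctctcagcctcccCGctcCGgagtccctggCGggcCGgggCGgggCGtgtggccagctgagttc
Esr1 promoter: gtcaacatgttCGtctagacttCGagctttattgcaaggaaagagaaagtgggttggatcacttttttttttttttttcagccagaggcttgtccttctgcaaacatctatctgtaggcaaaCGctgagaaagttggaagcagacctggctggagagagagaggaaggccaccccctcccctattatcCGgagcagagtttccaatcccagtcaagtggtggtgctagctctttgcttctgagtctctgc
Rela promoter: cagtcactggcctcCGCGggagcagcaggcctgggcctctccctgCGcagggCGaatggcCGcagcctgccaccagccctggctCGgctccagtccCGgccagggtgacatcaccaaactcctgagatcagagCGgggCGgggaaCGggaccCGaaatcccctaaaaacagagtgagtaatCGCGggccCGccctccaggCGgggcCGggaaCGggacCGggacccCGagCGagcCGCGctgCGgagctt

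The proximal windows were by their means a little less methylated than their neighbours in every library, and held more gene starts. They averaged 62.3%, 60.1% and 68.4% CpG methylation in G1 replicates 1, 2 and 3, against 61.4%, 59.9% and 68.0% in G2/M replicates 1, 2 and 3, so replicate 3 was the highest library in each phase. The neighbours averaged 64.7% over the 6 libraries and the rest of the autosomes 63.8%. Proximal minus neighbour was -1.68, -1.46 and -1.45 percentage points in G1 and -1.21, -1.02 and -1.03 points in G2/M, below 0 in 6 of 6 libraries with a mean of -1.31 points. Averaging the phases within a replicate number gave p = 0.25 in an exact two-sided test of sign flips, and 3 numbers allow none lower. The files give percentages without read counts, so the depth behind each value is unknown and no interval of counting error can be set.

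Most of the difference lay in the tail of weakly methylated windows. Of the proximal windows, 348 (4.60%) averaged under 20% over the 6 libraries, against 205 (2.90%) of the neighbours and 3.60% of the other autosomal windows. This share lay between 4.43% and 5.17% in the 6 libraries, and that of the neighbours between 2.90% and 3.41%. Most proximal windows, 82.3%, lay between 50% and 80%, and 3.88% were above 80%. The median of the window means was 68.3% for the proximal windows and 68.4% for the neighbours. Without the windows under 20% the difference from the neighbours shrank to -0.323 points, by medians it was -0.230 points, and with windows weighted by length it was -0.0188 points.

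The proximal ends were richer in genes and CpGs than the neighbours. The 56486309 assembled proximal bases held 635 starts of protein-coding genes, 11.2 per Mb, against 7.05 per Mb in the neighbours. They held 8.27 CpGs per kb, against 7.84, and 40.03% of their bases were annotated as repeats, against 38.9%. Since a window ends after a fixed number of CpG positions, windows were shorter here, with a median of 6111 bp against 6732 bp. The 413 proximal windows with a coding start averaged 37.5% and 131 of them (31.7%) were under 20%. The 7144 windows without one averaged 64.8%, and 217 of them were under 20%, so most of the 348 weakly methylated windows held no coding start. The corresponding neighbour windows averaged 40.4% and 65.6%, with 76 and 129 under 20%. Of the proximal windows, 46.6% were centred in introns, 8.51% in exons and 44.9% between genes, with means of 63.3%, 52.2% and 65.5%.

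**Figure D1:**
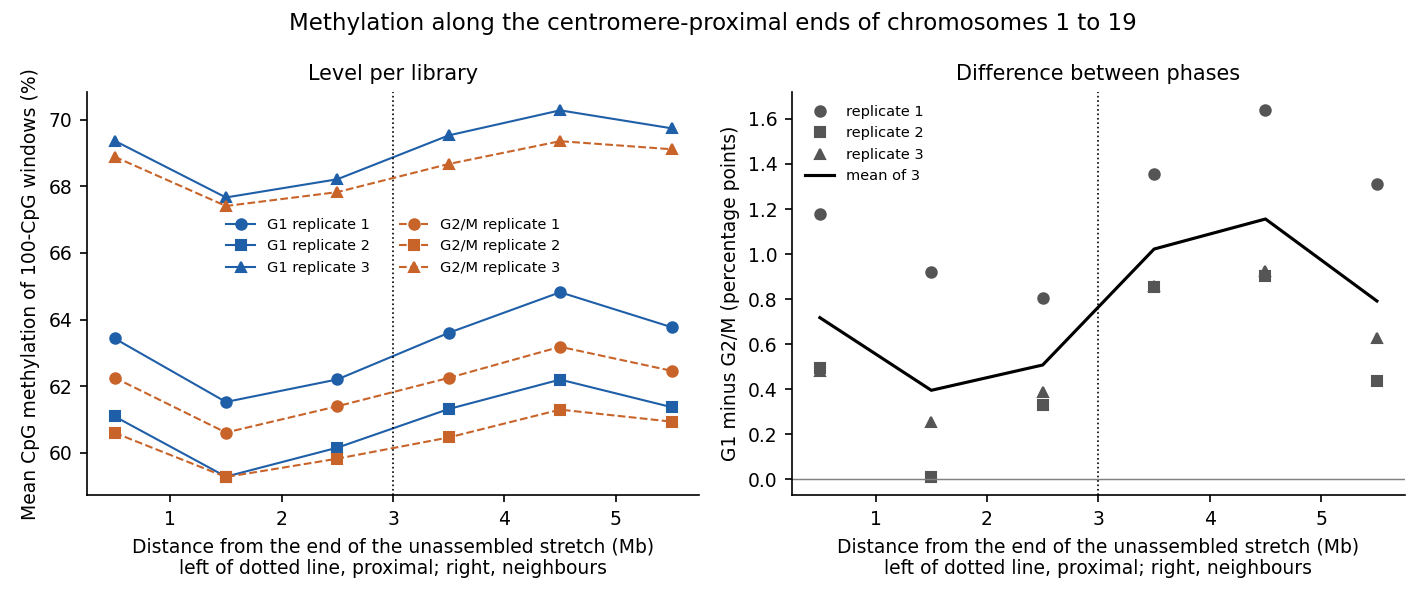
Mean CpG methylation of the windows in each 1-Mb step (left, percent, 6 libraries) and the G1 minus G2/M difference of same-numbered libraries (right, percentage points; the line is their mean) against distance from the end of the unassembled stretch. The second step is the lowest of the 6 in every library, and the mean difference between phases lies between 0.395 and 0.718 points in the 3 proximal steps and between 0.792 and 1.16 points in the neighbours.

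Methylation did not change steadily with distance from the centromere. Over the 6 libraries the windows centred 3 to 4 Mb from the chromosome's numbered start averaged 64.3%, those from 4 to 5 Mb 62.6% and those from 5 to 6 Mb 63.3%. The 3 neighbour steps followed with 64.3%, 65.2% and 64.6%. At the boundary itself the last window inside the 6 Mb limit had a median over the 19 chromosomes of 67.6% (range 42.8% to 82.1%), and the first window outside one of 69.4% (range 51.8% to 82.9%).

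Chromosomes differed more from each other than the proximal windows did from the neighbours. The mean over the 6 libraries ran from 51.7% on chromosome 7 to 68.7% on chromosome 18. The other low ends were those of chromosomes 19 (53.9%), 14 (54.2%), 8 (55.4%) and 11 (57.6%). Proximal windows were below the neighbours of their own chromosome in all 6 libraries on 9 chromosomes, above them in all 6 on 5, and of mixed sign on 5. The deepest deficits were on chromosome 7, where the 6 libraries ranged from -10.7 to -6.68 points around a mean of -8.66, and on chromosome 8, where they ranged from -8.05 to -6.45 around -7.05. Chromosomes 10 (-5.59 points) and 11 (-5.53 points) followed. The largest excess was on chromosome 6, from 4.85 to 6.20 points around 5.42, followed by chromosome 9 with 2.24 points. On chromosome 6 it was the neighbours that were low (62.2%), while its proximal windows (67.6%) were close to those of chromosomes 4 and 13 (67.9% each).

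**Figure D2:**
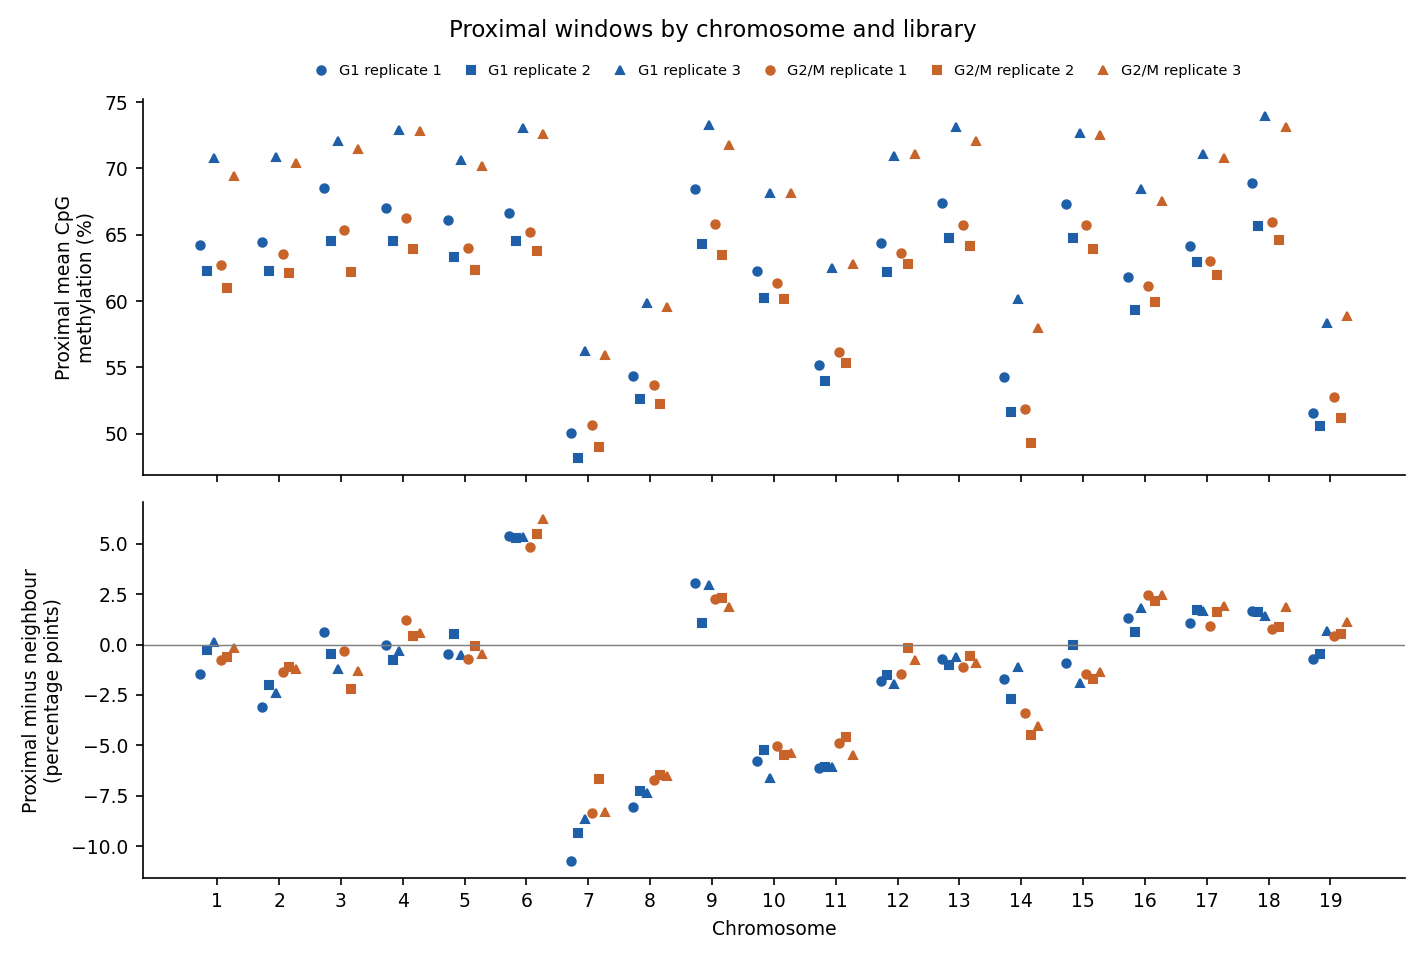
Mean CpG methylation of the proximal windows (upper, percent) and proximal minus neighbour difference (lower, percentage points) for each autosome; each point is a library, coloured by phase and shaped by replicate. Chromosomes 7, 8, 10 and 11 lie below 0 in every library and chromosome 6 lies above it.

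The low means of chromosomes 19 and 7 went with many weakly methylated windows and many genes. Chromosome 19 held 78 proximal windows under 20% (13.0%) and chromosome 7 held 46 (13.3%), against 2 on chromosome 3 (0.702%). Coding starts numbered 120 on proximal chromosome 19 and 87 on chromosome 7, against 4 on chromosome 3. Chromosome 14, also low, had 73 windows in all, windows covered 60.9% of its proximal bases, and 3 windows were under 20%. By 1-Mb bins, the lowest were the 262 windows of chromosome 19 from 5 to 6 Mb, at 48.9%, and the 187 windows of chromosome 7 from 4 to 5 Mb, at 49.4%. The highest were chromosome 12 from 5 to 6 Mb, at 71.4%, and chromosome 9 from 3 to 4 Mb, at 70.8%. The order of the libraries was the same in these 4 bins for replicate 3, which was the highest of its phase in each.

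Most runs of weakly methylated windows were single windows, as counted among measured windows only. The 348 windows under 20% fell into 256 runs, of which 188 were single windows and 68 held more. A coding start lay in 79 of the single windows (42.0%) and in 47 of the longer runs (69.1%). The longest run was 8 windows over 28480 bp (chr19:4787003-4815482), with the starts of Rbm4 and Rbm14, which encode RNA-binding proteins, and of Gm21992. It averaged 4.94%, 7.07% and 9.11% in G1 replicates 1, 2 and 3, against 6.76%, 5.00% and 6.49% in G2/M replicates 1, 2 and 3, with overlapping phases. The next longest by number were a run of 5 windows over 14501 bp on chromosome 7 (chr7:5008659-5023159), which averaged 8.09% and held the starts of Zfp524, Zfp865, Fiz1, Ccdc106 and Gm44973, and another of 5 over 9899 bp on chromosome 8 (chr8:4249528-4259426) at 13.6%.

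The windows that open each chromosome ranged from 50.8% to 84.8% over the 6 libraries, with a median of 66.6%. The 19 together averaged 66.4%, 68.2% and 73.5% in G1, against 64.1%, 62.5% and 69.7% in G2/M, which overlap. G1 was higher by 2.32, 5.73 and 3.74 points, in 3 of 3 pairs and in 14 of 19 windows. Their mean difference of 3.93 points had p = 0.30 in the exact permutation test over libraries and p = 0.25 by sign flips within pairs, also exact. At 13248 bp, the median first window was longer than the proximal median of 6111 bp. The highest was that of chromosome 12 (chr12:3000068-3003949, intergenic), with 86.7%, 80.2% and 87.8% in G1, against 89.1%, 81.4% and 83.5% in G2/M. Its phases overlapped. Next was that of chromosome 9 (chr9:3051028-3059440, intergenic), with 73.9%, 78.2% and 90.9% in G1, against 67.0%, 81.1% and 84.8% in G2/M. The lowest was that of chromosome 7 (chr7:3000226-3477065), with 38.6%, 61.5% and 44.9% in G1, against 52.5%, 44.6% and 62.9% in G2/M, with overlapping phases. Second lowest was that of chromosome 18 (chr18:3000024-3007069, intergenic), with 48.3%, 52.8% and 58.9% in G1, against 54.2%, 60.8% and 60.3% in G2/M. The phases separated, with G1 above, in 2 first windows (as in 4.12% of all windows), named after their values were seen. That of chromosome 16 (chr16:3083681-3098983, intergenic) read 70.7%, 73.9% and 79.3% in G1, against 50%, 68.1% and 59.2% in G2/M. That of chromosome 3 (chr3:3000174-3013889, intergenic) read 68.1%, 74.6% and 76.8% in G1, against 50.6%, 65.6% and 63.6% in G2/M. All 19 had an adjusted p of 1 in limma. The printed sequences of chromosomes 12 and 7 hold 1 and 5 CpGs in their 240 bases. Their whole first windows hold 77 CpGs in 3882 bp and 4957 in 476840 bp, in that order. What the printed bases add to either methylation value is not known.

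Long stretches near the gap were read only in part. The first window of chromosome 7 spans 476840 bp with 4957 CpGs in the reference, where a typical proximal window has 51. Windows thus appear to count only measured positions, a rule inferred here from their coordinates. This window of chromosome 7 reaches over the starts of Nlrp12, Myadm, Cacng6, Cacng7 and Cacng8, among others. The second longest window, on chromosome 19 (chr19:4013381-4263562), spans 250182 bp and averaged 65.3%, with 64.4%, 59.5% and 68.3% in G1, against 70.4%, 63.8% and 65.4% in G2/M. It reaches over 19 coding starts, among them Gstp1, Gstp2 and Gstp3 of glutathione conjugation and Ppp1ca, and so says nothing of any of them singly. In all, 218 proximal windows (2.88%) held over 100 CpGs of the reference, against 268 neighbour windows (3.79%), and 45 of them were on chromosome 14.

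Another 16 stretches of at least 15000 bp had no window at all. Of their 1489682 bases, 1136923 were on chromosome 14, in 7 stretches. The largest were chr14:3287846-3771023 (483178 bp) and chr14:5386442-5763727 (377286 bp), where the annotation lists genes known by Gm names and pseudogenes. Windows covered 95.5% of the proximal bases and 97.2% of the neighbours. The first 51027 bases of chromosome 9 (chr9:3000001-3051027) had no window, and 59.2% of their bases matched the base 234 positions further on. Over that stretch, 92 of 217 consecutive 234-base blocks were at least 70% identical to the next. The printed unit is not one of these blocks. It was picked, over all starting bases, as the 234 bases most like those that follow them, with 97.9% identical. Mouse major satellite has a unit of this length. The CENP-B box, the binding motif of a centromere protein, searched on both strands as NTTCGNNNNANNCGGGN with overlaps allowed, was found in 9 proximal windows (0.119%) and 11 neighbour windows (0.156%).

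G1 and G2/M differed little in the proximal windows, and by less than elsewhere on the autosomes. G1 libraries had a proximal mean of 63.6% ± 4.27 (SD, n = 3). For G2/M libraries it was 63.1% ± 4.33 (SD, n = 3), so the difference was 0.536 points against a spread between replicates of several points (two-sided exact permutation test over 20 labelings, p = 0.70). The study speaks of matched replicates, taken here as those of the same number. Within these G1 exceeded G2/M by 0.959, 0.271 and 0.378 points, in 3 of 3 pairs (p = 0.25 by an exact sign-flip test, two-sided, and 3 pairs allow none lower). Because the replicates lie apart, leaving out a library moved the unpaired value: it was -1.84 points without G1 replicate 3, -0.314 points once G2/M replicate 1 was dropped, and -1.07 points for the set lacking G2/M replicate 2. Centred on each library's own autosomal mean, which was 0.844 points higher in G1, G1 minus G2/M was -0.308 points in the proximal windows (p = 0.10, exact permutation test).

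Set against the neighbours within each library, the phases separated. Proximal minus neighbour was lower in every G1 library (-1.68, -1.46 and -1.45 points) than in every G2/M library (-1.21, -1.02 and -1.03 points), a difference of -0.443 points (two-sided exact permutation test, p = 0.10, the smallest that 3 against 3 libraries allow). The matched differences were -0.472, -0.439 and -0.418 points. In other words, the neighbours were 1.43, 0.710 and 0.796 points higher in G1, and the proximal windows by the smaller amounts above. Against the rest of the autosomes the difference was -0.315 points (p = 0.10, exact), with matched values of -0.294, -0.346 and -0.303. The value depended on how chromosomes were counted: with each chromosome counted once it was -0.282 points against the neighbours (p = 0.10, exact) and -0.124 points against the rest (p = 0.20, exact), and without chromosomes 7, 14 and 19 it was -0.171 against the rest. By medians over windows the difference from the neighbours was -0.392 points (p = 0.20, exact).

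**Figure D3:**
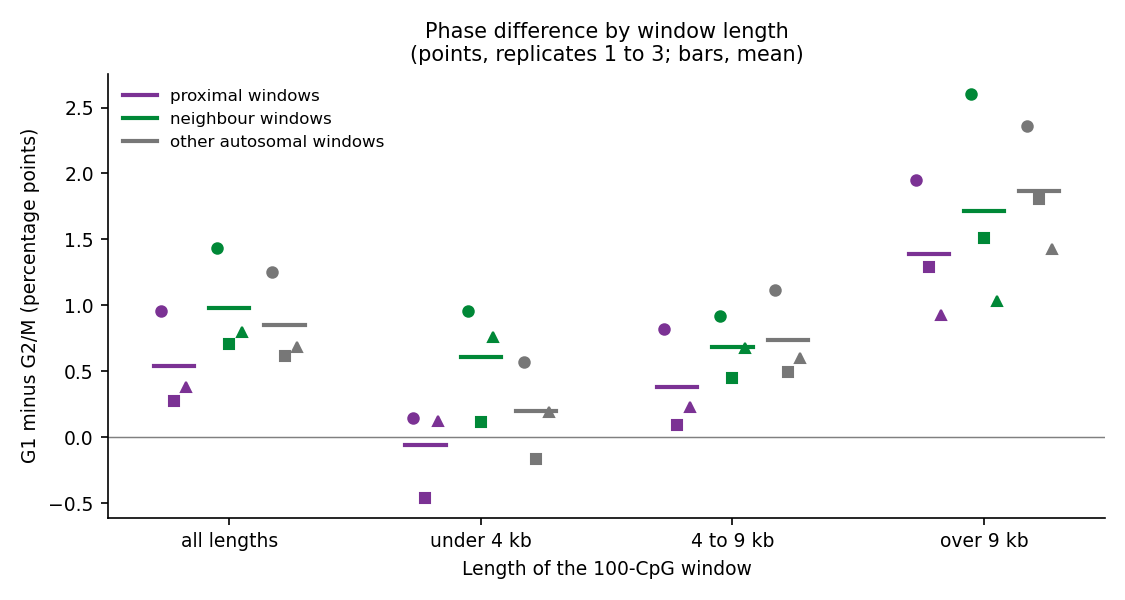
G1 minus G2/M CpG methylation (percentage points) of same-numbered libraries, for proximal, neighbour and other autosomal windows, over all windows and by window length; points are replicates 1 (circle), 2 (square) and 3 (triangle) and bars their means. In each length class the bar of the proximal windows is the lowest of the 3.

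Window length, which runs opposite to CpG density, went with the size of the phase difference in the proximal windows as elsewhere. In the 1530 proximal windows under 4000 bp, G1 minus G2/M was 0.147, -0.459 and 0.126 points, with a mean of -0.0620. In the 4181 windows from 4000 to 9000 bp the pairs gave 0.819, 0.0887 and 0.229 points. In the 1846 windows over 9000 bp they gave 1.95, 1.29 and 0.925 points, with a mean of 1.39. The means of the neighbours in these classes were 0.609, 0.680 and 1.71 points and those of the other autosomal windows 0.199, 0.735 and 1.86 points, higher than the proximal mean in each class. Weighting the neighbours to the window lengths of the proximal ends left a difference of -0.353 points (p = 0.10, exact permutation test).

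By chromosome, the proximal windows were higher in G1 in 3 of 3 pairs on 13 chromosomes, lower in 3 of 3 on 2, and mixed on 4, whereas the neighbours were higher in G1 on average on all 19. The proximal mean difference was above 0 on 15. Within chromosomes it was below that of the neighbours on only 11 of the 19, so the smaller proximal difference was not shared by all. Chromosome 14 stood highest, with matched differences of 2.41, 2.31 and 2.15 points, but over only 73 windows. Chromosome 3 followed with 3.23, 2.34 and 0.592 points. At the other end, G1 minus G2/M was -0.964, -1.38 and -0.311 points on chromosome 11 and -1.15, -0.643 and -0.539 points on chromosome 19. These 2 had the highest CpG density of the 19 proximal ends, 11.8 and 13.5 CpGs per kb, and chromosome 3 the lowest, 5.49 per kb.

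The number of windows in a 1-Mb bin reflects coverage as well as CpG density. The sign of the phase difference also varied among the 57 proximal bins of 1 Mb. G1 was higher on average in 42 of them (73.7%), against 89.5% of the neighbour bins and 84.1% of the other autosomal bins. Among the 19 bins with most windows, 154 to 262 each, G1 was higher in 7, with a median difference of -0.281 points. Among the 19 with fewest, 13 to 108 each, it was higher in 18, with a median of 1.67 points. As a description, Pearson's r between the number of windows and the phase difference was -0.648 and Spearman's rho -0.705 over the 57 bins, which share their 6 libraries, and a bin with fewer windows is also measured less precisely. Pearson's r was -0.610 over the 57 neighbour bins and -0.618 over 2282 other bins, and leaving out chromosome 14 gave -0.603 over 54 proximal bins.

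**Figure D4:**
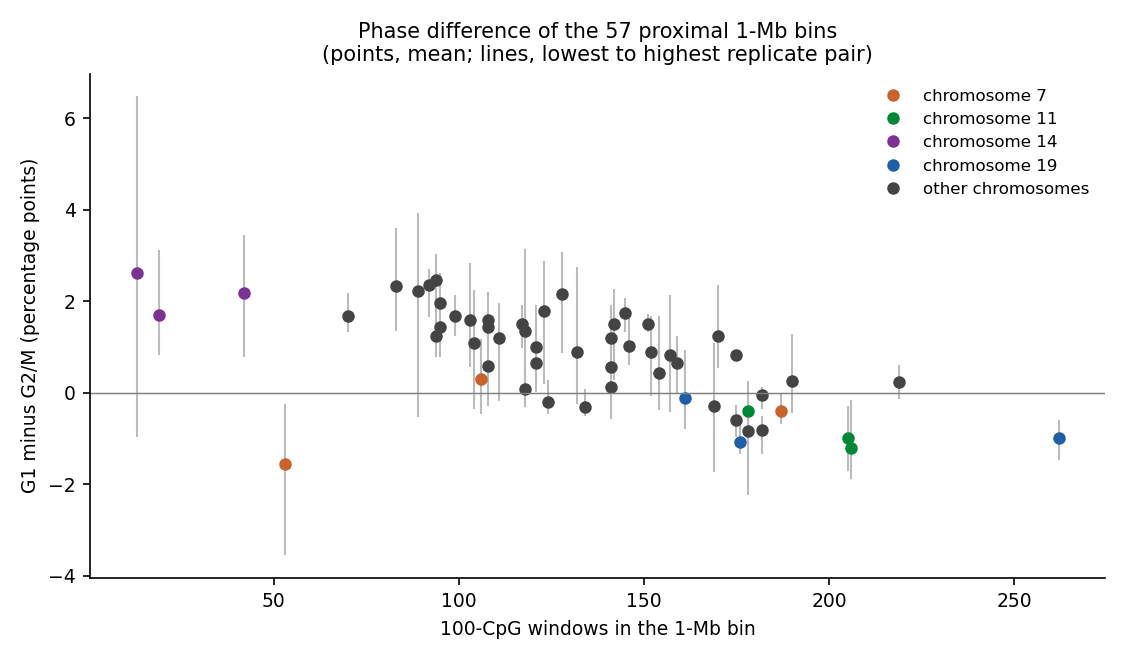
G1 minus G2/M CpG methylation (percentage points) of the 57 proximal 1-Mb bins against the number of 100-CpG windows in each; points are the mean of 3 matched pairs and lines run from the lowest to the highest pair. Bins of chromosomes 11 and 19, with 161 to 262 windows, lie below 0, and the 3 bins of chromosome 14, with 13 to 42 windows, lie above it.

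The bins at the ends of this range were as follows. Chromosome 14 from 3 to 4 Mb gave 62.3%, 55.4% and 62.5% in G1, against 55.8%, 53.0% and 63.5% in G2/M, from 13 windows, so that its mean difference of 2.62 points came with 1 pair of opposite sign. Chromosome 3 from 5 to 6 Mb gave 66.4%, 62.4% and 71.5% in G1, against 63.3%, 59.7% and 69.8% in G2/M, a difference of 2.47 points with G1 higher in 3 of 3 pairs. Chromosome 7 from 3 to 4 Mb gave 49.0%, 47.4% and 56.5% in G1, against 49.8%, 50.9% and 56.7% in G2/M, where G1 was lower in 3 of 3 pairs, with a mean difference of -1.55 points. This bin holds the 476840-bp window. Chromosome 11 from 5 to 6 Mb, with 206 windows, gave 54.0%, 52.2% and 61.7% in G1, against 55.8%, 53.8% and 61.9% in G2/M, a mean difference of -1.21 points.

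In limma across all 2396 autosomal bins, 0 proximal bins passed a Benjamini-Hochberg adjusted p of 0.05 and 0 had an unadjusted p under 0.05, as in all bins (0%). With the replicate number as a block, 21 of the 57 proximal bins passed, all higher in G1, a share of 36.8% against 43.3% of all bins (43.8% in either direction, 0.459% higher in G2/M). Chromosome 3 from 5 to 6 Mb had the smallest adjusted p of them (0.00120), and chromosome 14 from 3 to 4 Mb passed too (0.0254). The pairs of the latter bin differed by 6.47, 2.35 and -0.971 points, and limma draws its variance towards that of other bins. With the libraries centred on their autosomal mean as well as blocked, 12 proximal bins passed, with 4 higher in G1 (18.6% of all bins) and 8 in G2/M (5.18% of all bins). At an unadjusted p under 0.05, 29 proximal bins passed with the block (50.6% of all bins), 14 with centring (26.8%) and 23 with both (39.9%). In the neighbours the fit with both called 12 bins higher in G1 and 0 the other way at the adjusted threshold. The 8 proximal bins were those of chromosome 7 from 3 to 4 Mb, chromosomes 10, 12 and 16 from 4 to 5 Mb, chromosome 11 from 4 to 6 Mb, and chromosome 19 from 3 to 4 and from 5 to 6 Mb, named after their values were seen. Their centred G1 minus G2/M differences ran from -2.40 to -1.43 points.

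No single proximal window was called between phases. For proximal windows the median SD within a phase was 7.23 points, or 5.86 points after centring the libraries, and the mean absolute difference between phases was 4.31 points. In limma across all windows, 0 proximal windows passed an adjusted p of 0.05, against 8 of all windows (0.00223%), 4 in each direction (0.00111% each). At an unadjusted p under 0.05 there were 170, of which 101 were higher in G1 and 69 in G2/M. The shares among all windows were 2.11%, 1.36% and 0.75%, so the 2.25% of proximal windows with such a p was near the background. With libraries centred on their median, the count was 378 with 151 higher in G1 and 227 in G2/M, against 2.2% and 2.7% of all windows (4.9% together), and with the replicate block it was 380, against 4.83% of all windows. Every G1 library exceeded every G2/M library in 275 proximal windows (3.64%), against 4.12% of all windows, and the reverse held in 182 (2.41%), against 1.98%. In the neighbours the corresponding numbers were 310 (4.39%) and 133 (1.88%).

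The proximal window with the smallest p among those higher in G2/M at a gene start was that of Dnmt3a, which encodes a de novo DNA methyltransferase. It covers the most upstream annotated start of the gene (chr12:3804446-3806717, plus strand) and read 13.8%, 14.6% and 10.0% in G1, against 24.4%, 25.03% and 43.2% in G2/M. The phases did not overlap, with G1 below, as in 1.98% of all windows. The difference was -1.52 ± 0.407 (SE) on the log2 scale of methylated over unmethylated percentage, with a limma adjusted p of 1. The RefSeq start of the gene lies 973 bp downstream of this start, and the 250 bases before it, with 38 CpGs, lie outside the window. The window with the smallest p in that direction lies in Fkbp1b, which encodes a regulator of calcium release channels (chr12:4832498-4838773, intron). It read 58.0%, 53.0% and 61.4% in G1, against 78.2%, 74.1% and 81.8% in G2/M (adjusted p = 1, limma).

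Among windows higher in G1, the smallest p values belonged to weakly methylated windows. A window in Tcea1, which encodes a transcription elongation factor (chr1:4858069-4859955, intron), read 1.72%, 2.02% and 4.05% in G1, against 1.04%, 0% and 0% in G2/M. A window at the start of Cd248, a cell surface glycoprotein gene (chr19:5067683-5068717, exon), read 3.45%, 5.41% and 8.62% in G1, against 0%, 0.543% and 2.33% in G2/M. The phases did not overlap in either window, as in 4.12% of all windows with G1 above. Both had an adjusted p of 1 in limma. Their absolute differences were 2.25 and 4.87 points.

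Of the 32 listed genes of these ends, 20 had a window at their most upstream start, 11 had a start in no window, and Npr3 lay outside the ends. Of 336 proximal coding starts with 40 or more CpGs in the surrounding kilobase, 209 (62.2%) lay in a window, against 261 of the 299 others (87.3%), a share for which no test was run. The shares in the neighbours were 60.5% and 93.7%. Rela, which encodes an NF-kappaB subunit and has a CpG-dense promoter printed above, lay in a gap of 1436 bp between windows. The acetyltransferase genes Crebbp and Kat5, the coactivator gene Ncoa1, the insulin receptor gene Insr, Plag1, Xbp1, Lypla1 and the long noncoding RNA Malat1 were in such gaps too. So were the imprinted neighbours Peg10 and Sgce, whose starts share a gap of 1868 bp, and which therefore have no value here.

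Among the 20 measured starts, 8 were under 20%, 7 between 20% and 50%, and 5 at or above 50%. Suv39h2, a methyltransferase for histone H3 lysine 9 in pericentromeric heterochromatin, was listed at 0% in all 6 libraries (chr2:3474675-3475166), as was the transcription factor gene Klf6 (chr13:5861189-5861902). In all, 42 of 7557 proximal windows were at 0% in every library. Of the 7065 neighbour windows 18 were, and of the 337223 other autosomal windows 1320. Without read counts a listed 0% cannot be told from a low value at few reads. Zeb1, a transcription factor gene of epithelial-mesenchymal transition, read 2.08% in G1 replicate 1 and 0% in the other libraries, and the cyclin-dependent kinase gene Cdk6 read 4.76% there and 0% elsewhere. The long noncoding RNA Neat1 read 16.0% and 12.5% in the G1 and G2/M libraries of replicate 3 and 0% in the other 4.

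The other low starts were those of genes of signalling and cell growth. Lyn, a Src family kinase gene, averaged 5.91% and Nf2, the gene of the tumour suppressor merlin, 9.69%. Fzd1, a Wnt receptor gene, read 7.26%, 14.6% and 13.2% in G1, against 6.10%, 1.74% and 8.68% in G2/M, with overlapping phases (adjusted p = 1, limma). In the middle lay Mos (30.7%), a kinase gene of oocytes, Crem (31.2%), a cAMP-responsive transcription factor gene, the cytokine gene Osm (36.4%), the collagen gene Col1a2 (37.1%), the endoderm factor gene Sox17 (41.9%) and the glutamate receptor gene Gria4 (42.6%).

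Among the 5 starts at or above 50% were those of Esr1, Rp1, Pomc and Lif. Esr1, which encodes oestrogen receptor alpha (chr10:4609912-4613399), read 75.2%, 74.1% and 76.8% in G1, against 65.6%, 65.7% and 62.0% in G2/M, with no overlap between phases, a difference of 10.9 points and an adjusted p of 1 in limma. Every G1 library exceeded every G2/M library in 4.12% of all windows. The Esr1 promoter printed above, with 4 CpGs, is that of the RefSeq start. It lies inside this window but downstream of the most upstream start. The photoreceptor gene Rp1 averaged 68.1% and the hormone precursor gene Pomc 55.7%. Lif, which encodes the factor added to the culture, averaged 52.0% with libraries from 42.8% to 70.5%. Over the 20 starts, 0 had an adjusted p under 0.05 in limma (0.00223% of all windows). An unadjusted p under 0.05 was found for 3, Fzd1, Esr1 and Dnmt3a, against 2.11% of all windows. The list was drawn up with earlier results known, so this count is a description.

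**Figure D5:**
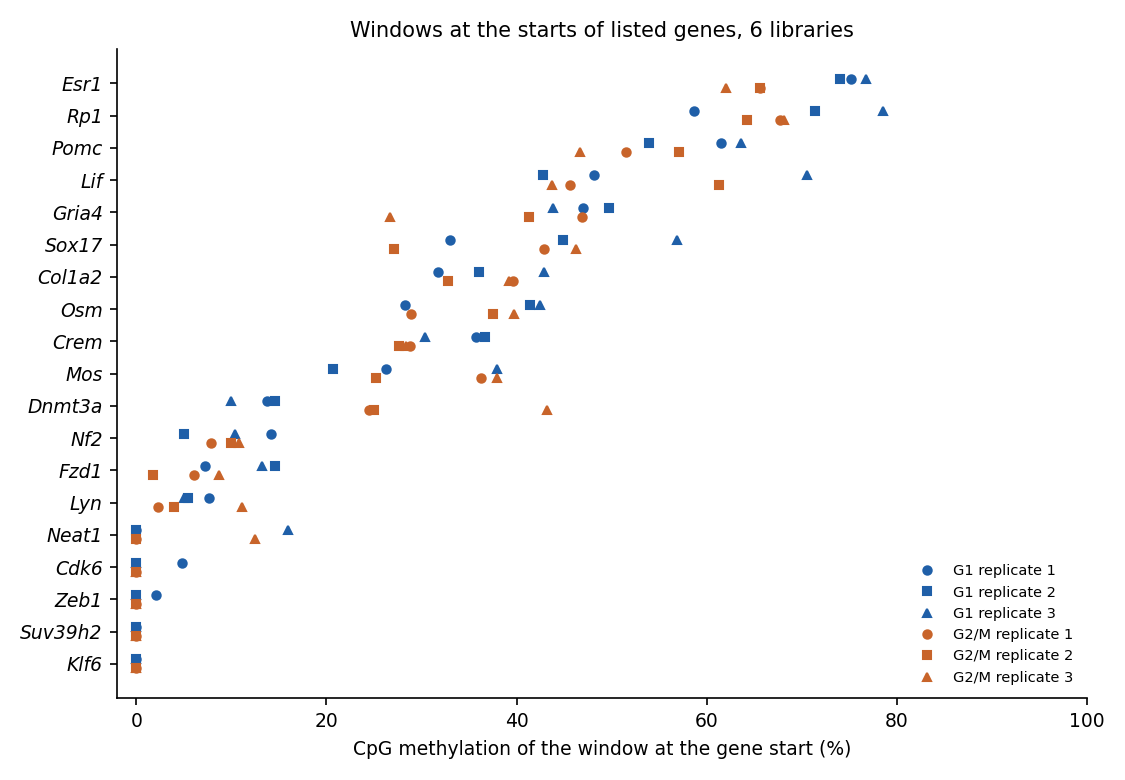
CpG methylation (percent) of the window at the most upstream start of 19 listed genes with a window, ordered by mean; points are the 6 libraries, coloured by phase and shaped by replicate. Suv39h2 and Klf6 sit at 0% in every library, and Dnmt3a and Esr1 show no overlap between phases, in opposite directions.

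Starts of receptor families were methylated more than those of zinc finger genes. The 14 vomeronasal receptor genes, most of them on chromosome 7, had starts in 13 windows with a median of 62.5% and none under 20%. The 4 genes of leukocyte and paired immunoglobulin-like receptors on chromosome 7 had a median of 67.1%. The 13 zinc finger genes had 7 windows at their starts, with a median of 24.9%, 3 of them under 20%. Neighbour vomeronasal receptor starts had a median of 53.2% over 11 windows and neighbour zinc finger starts one of 29.3% over 12. The zinc finger starts averaged 18.1%, 17.4% and 23.8% in G1, against 21.0%, 20.4% and 21.5% in G2/M, and the vomeronasal starts 61.8%, 61.6% and 68.5% in G1, against 62.9%, 58.8% and 67.5% in G2/M, so the phases overlapped in both.

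Cell identity could be checked only through DNA methylation, since no RNA was measured. The window at the start of the pluripotency gene Nanog, outside these ends, read 17.6%, 19.1% and 22.7% in G1, against 6.64%, 10.8% and 6.38% in G2/M. Its phases did not overlap, with G1 above, as in 4.12% of all windows. The part of this marker in the results above was not tested. The window at the start of Pou5f1 read 41.4% to 72.7% with overlapping phases, and Sox2 had no window at its start.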

How the data were processed

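EM-seq libraries of sorted G1 and G2/M mESCs were made by the authors in biological triplicate. Per the study's methods, reads (paired-end) were trimmed with Trim Galore 0.6.4, mapped to GRCm38 with Bismark 0.22.1 and Bowtie2, and removed where duplicated, of mapping quality below 20 or in outlier regions. The deposited values are percent CpG methylation per window of 100 CpG positions (both strands counted). Per the study's methods, a window was kept only if a minimum share of its CpGs was observed in every dataset. No read counts accompany them, so the authors' logistic regression could not be fitted and depth is unknown.

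Here, windows of chromosomes 1 to 19 were classed by position, and library means were tested with exact permutations (20 labelings, two-sided) and exact sign flips. The library was the unit of replication, and the exact p-values measure the spread between these libraries. In limma the variance of each window or bin is also drawn towards that of others of like level. A limma p-value thus does not rest on the spread of its own libraries alone. Limma 3.58.1 in R 4.3.3 was run on log2((percent + 1)/(100 - percent + 1)) over all 359192 windows, and on the mean percent of 2396 autosomal 1-Mb bins of 10 or more windows, with Benjamini-Hochberg adjustment over each. On simulated data without a block, 65 of 200 bins changed by 10 points passed the adjustment. With the block, 188 of 200 changed by 5 points and 0 of 200 changed by 2 points did. Of 200 windows changed by 2 on the log2 scale, 1 passed. The simulated noise was independent between features, whereas with the block 1049 of the 2396 real bins passed. The simulation thus does not set the smallest difference that the blocked fit calls: chromosome 13 from 4 to 5 Mb passed at 1.25 points. Same-numbered libraries were treated as matched because the study speaks of matched replicates and the labels number both phases alike; deviations from group means correlated at 0.0274 to 0.0549 between same-numbered libraries across windows and at -0.0299 to -0.00144 between others. Gene starts and exons were taken from GENCODE vM21, repeats and sequence from the GRCm38.p6 genome, promoters from RefSeq.

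The windows, lists and tests were chosen with earlier results of these data known. Windows named singly were, by rule, the 2 highest and lowest first windows, the 2 longest windows and low runs, the 2 smallest limma p in each direction, and the starts of 32 listed genes. Alternatives were medians, length weighting, chromosomes counted once, filters on level and length, centring, other offsets and scales, the replicate block and leaving out each library. Weighting comparison windows to proximal lengths and leaving out chromosomes 7, 14 and 19 were added after the data were seen, as were the tests of the first windows. The value of 1 listed gene is not reported here.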

Additional observations from a re-analysis of the deposited data

How the results depend on the processing

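The difference between phases of the proximal mean was -0.308 points after centring and ranged from -1.84 to 3.00 points when each library was left out in turn. It fell below 0 without G1 replicate 3 (-1.84), G2/M replicate 1 (-0.314) or G2/M replicate 2 (-1.07). The proximal minus neighbour level stayed below 0 in every alternative run, and ran from -1.39 to -1.23 points with a library left out. By medians, however, it was only -0.230 points (p = 0.50, exact sign-flip test), and with windows weighted by length only -0.0188 points. Over 6 libraries taken as separate, at -1.31 points, it reached p = 0.03125 (exact sign-flip test). That is the smallest p that 6 libraries allow, and it ignores the matching of same-numbered libraries. The proximal minus rest-of-autosomes level was -0.490 points (p = 0.03125 over 6 libraries, exact), and ranged from -0.548 to -0.432 with a library left out. Its sign depended on the setting. It was 0.0726 points by medians, 0.239 with windows weighted by length, 0.105 over windows at or above 20% and 0.983 without chromosomes 7, 14 and 19. It was -0.585 points with each chromosome counted once, -0.664 over windows from 4000 to 9000 bp and -0.826 with the rest weighted to proximal window lengths. The cause was not tested. The phase differences of these contrasts kept their sign throughout, from -0.505 to -0.366 points against the neighbours and from -0.357 to -0.256 against the rest with a library left out, and the replicate block left their values as they were (-0.443 and -0.315, p = 0.25, the smallest for 3 pairs, exact). The phase difference of the first windows, 3.93 points, was 3.09 points after centring, 5.30 points by medians and 1.88 (without G1 replicate 3) to 6.07 points (without G2/M replicate 3) with a library left out, and 2.45 points without G2/M replicate 2.

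Proximal windows past the adjusted p of 0.05 in limma numbered 0 to 2 when a library was left out. Without G1 replicate 1, where 0.00919% of all windows passed, they were Ovol1 and the Ccdc106 and Zfp580 window. Without G1 replicate 3 (0.0106% of all windows) it was Zdhhc24. Without G2/M replicate 3 (0.0128% of all windows) they were Mtfp1 and Ppp1r12c. All were named after their values were seen. Each of these windows had a phase whose remaining libraries all read 0%. Windows at an unadjusted p under 0.05 numbered 170 (2.11% of all windows), against 378 with centring (4.9%) and 380 with the replicate block (4.83% of all windows). With a library left out they numbered 114 (without G2/M replicate 1, 1.49% of all windows) to 272 (without G2/M replicate 3, 3.76% of all windows). The replicate block raised proximal bins past the adjusted threshold from 0 to 21, and centring with the block to 12. At an unadjusted p the counts were 29 with the block, 14 with centring and 23 with both, and 0 to 0 with a library left out, as for the adjusted threshold. The block changed no other call.

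Depth is unknown, and windows that span skipped sequence, most numerous on chromosomes 14 (45 windows) and 8 (25 windows), stand for a small part of the bases they cover. With 3 libraries a phase, the design allows no permutation p below 0.10.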
